A study of Mus musculus with 8 samples.

Results

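The major histocompatibility complex (MHC) genes described here are 10 genes of antigen presentation. They are the class I genes H2-K1, H2-D1, B2m, Tap1 and Tap2, and the class II genes H2-Aa, H2-Ab1, H2-Eb1, Cd74 and Ciita. They were chosen by name, as every probe annotated with a member's symbol or a synonym of it, which gave 13 probes for 10 of the 24474 genes named on the array. All 10 passed the filter on dim probes, which left 17732 genes for testing. H2-K1 had 3 probes, H2-Ab1 had 2 and the others had 1 each.

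MHC class I molecules are made by nearly all nucleated cells and show peptides from inside the cell to CD8 T cells. Their heavy chain pairs with beta-2 microglobulin and is loaded in the endoplasmic reticulum with peptides that the TAP transporter brings in. Class II molecules are alpha and beta chain pairs that show peptides from the endocytic pathway to CD4 T cells. They are best known from B cells, dendritic cells and macrophages, and in the lung also from alveolar epithelium.

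The arrays measured lung cells from adult female C57BL/6 mice aged 12 to 16 weeks. The 4 groups were pulmonary single cells (Pu), the unsorted lung suspension, and fibroblasts of the types A, B and C isolated from it, with no treatment or transgene in any group. Cells for the sort had been stained for PDGFRA, SCA-1 and THY-1, and for CD45 of leukocytes, CD31, CD146 and LYVE-1 of vessels, TER119 of red cells and E-cadherin of epithelium. Each group had 2 independently prepared samples of 50000 cells, and 10 ng of RNA per sample was amplified before Cy3 labelling. The marker combination that defines each type and the number of mice behind a sample are not given in the sources used here, so the spread between samples is not known to be a spread between mice.

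The 75th percentile of the signal lay between 113.5 and 259.8 units on the 8 arrays, and the scanner software called 54.6% to 68.7% of spots well above background. Replicate arrays correlated across genes at 0.915 in Pu, 0.985 in A, 0.985 in B and 0.946 in C. Both Pu arrays were on 1 slide and all 6 fibroblast arrays on another, so slide and sort cannot be told apart in any comparison with Pu, whereas the fibroblast types were compared within a slide. All 10 fibroblast markers were above background on every array, and their summed signal on the fibroblast arrays was 676% to 1320% of the Pu mean.

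Values below are log2 signals relative to the 75th percentile of the array, which lies at 0. They compare groups for 1 probe and do not rank genes, since probes differ in how strongly they bind. A difference is given in log2 units with the standard error (SE) of the limma fit, and a call is an adjusted p (Benjamini-Hochberg over all genes tested) under 0.05.

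The class II chains and the invariant chain were far lower in all 3 fibroblast types than in pulmonary single cells, by 54.5-fold or more. With normexp background correction, which adds 50 units to every signal, the folds of these 4 genes were smaller, from 11.2-fold (H2-Eb1 in C) to 130-fold (Cd74 in B), and all stayed called. The class I genes stayed within about 1 log2 unit of the pulmonary level, and of these only H2-D1 in the C type passed the test. The class II transactivator Ciita did not follow the class II chains and was not called in any comparison. Of the 10 members, 4 were lower in the A type, where 26.4% of all genes were called and 11.7% were lower. The B type had 4 lower, with 29% of all genes called and 12.9% lower. The C type had 5 lower, with 28.4% called and 13.7% lower. No member was called higher. In bulk samples, fewer cells of a type and less RNA per cell cannot be told apart.

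**Figure D1:**
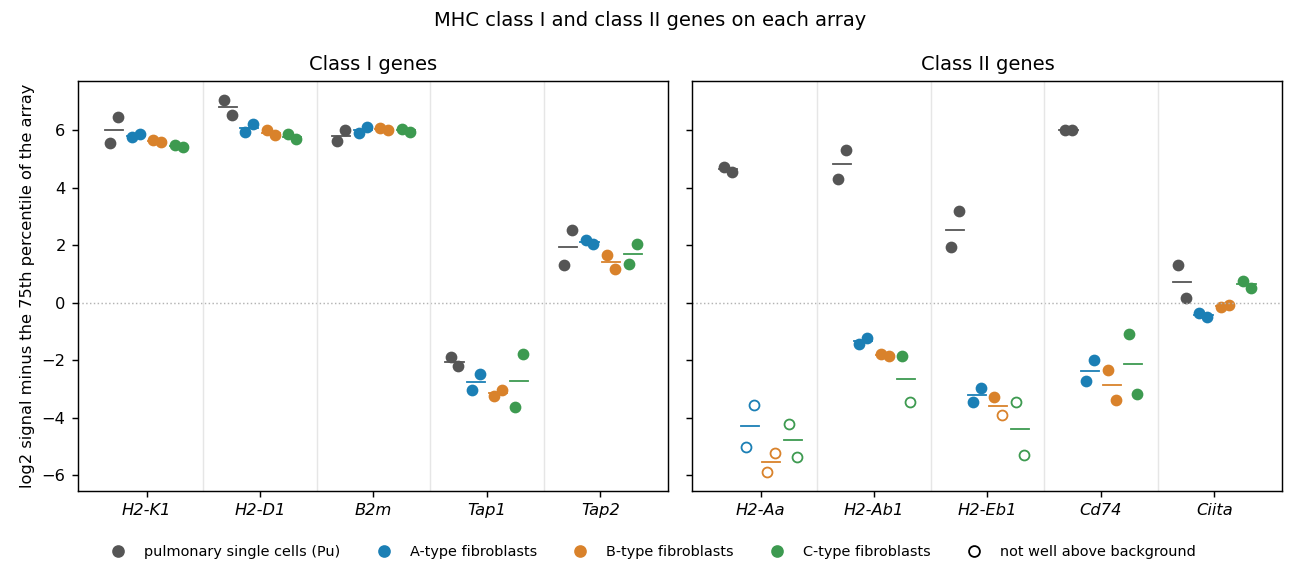
Scaled log2 signal of the 10 members (brightest probe of each gene) on the 8 arrays, with class I genes on the left and class II genes on the right; points are arrays, short lines are means of 2 arrays, and open points were not well above background. The Pu points of H2-Aa, H2-Ab1, H2-Eb1 and Cd74 lie far above all fibroblast points, while those of B2m lie at 5.64 and 6.01 among fibroblast values of 5.91 to 6.12.

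H2-K1 encodes the K heavy chain, one of the classical class I molecules of the C57BL/6 mouse. Its brightest probe read 5.56 and 6.48 in the Pu samples, 5.77 and 5.88 in A, 5.67 and 5.58 in B, and 5.49 and 5.41 in C (arrays in the order 1, 2 here and below). The Pu arrays spanned the A and B values, and both C arrays lay below both Pu arrays. The differences from Pu were -0.19 ± 0.35 (SE) in A, -0.39 ± 0.35 in B and -0.57 ± 0.35 in C, with adjusted p of 0.713, 0.44 and 0.272. The other probes of the gene did not follow this one on every array. The second read 5.35 and 4.96 on Pu1 and Pu2 and 3.97 to 4.27 on the fibroblast arrays, with no overlap. With every probe tested on its own, it was lower in B by -1.06 ± 0.30 (adjusted p = 0.049) and in C by -1.04 ± 0.30 (adjusted p = 0.0499), and in A it differed by -0.99 ± 0.30 (adjusted p = 0.0637). The third read 3.69 and 2.38 on the Pu arrays and 2.18 to 2.81 on the others. Which H2-K1 probe is used therefore changes the call, and cross-hybridisation with the closely related heavy chains was not tested.

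H2-D1 encodes the D heavy chain, the other classical class I molecule of this strain. It read 7.07 and 6.55 on the Pu arrays, 5.96 and 6.21 in A, 6.02 and 5.83 in B, and 5.87 and 5.69 in C. Both Pu arrays lay above all 6 fibroblast arrays. The difference was -0.72 ± 0.30 in A (adjusted p = 0.127), -0.88 ± 0.30 in B (adjusted p = 0.0688) and -1.03 ± 0.30 in C (adjusted p = 0.0439), the last a 2.04-fold lower signal. The C-type call was lost under 13 of the 19 alternative settings, with median scaling giving -0.62 (adjusted p = 0.171) and the fit without Pu1 giving -0.76. Some settings instead added calls in the other types. In B it was called with quantile normalization (-1.1) and with normexp correction (-0.92). It was also called in B with the 75th percentile of probes above background on all arrays (-1.21). In A it was called with normexp correction (-0.74).

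B2m encodes beta-2 microglobulin, the light chain shared by all class I molecules. It read 5.64 and 6.01 in Pu, 5.91 and 6.12 in A, 6.08 and 6.00 in B, and 6.04 and 5.95 in C. The groups overlapped, with the lowest value on Pu1. The differences were 0.19 in A with a 95% interval of -0.46 to 0.85, 0.22 in B (-0.44 to 0.88) and 0.18 in C (-0.48 to 0.83). Intervals of this width leave room for a change of nearly 2-fold upward, so equal levels are not shown. The sign of these differences turned under quantile normalization, as it did when the 75th percentile was taken over probes above background on all arrays.

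Tap1 and Tap2 encode the subunits of the peptide transporter. Tap1 was dim but above background on all 8 arrays, at -1.90 and -2.19 in Pu, -3.04 and -2.49 in A, -3.25 and -3.05 in B, and -3.64 and -1.78 in C. The A and B arrays lay below both Pu arrays, and the C arrays fell on either side of them. The differences were -0.72 ± 0.58 in A, -1.1 ± 0.58 in B and -0.66 ± 0.58 in C, with adjusted p of 0.398, 0.2 and 0.439. Without C1 the C-type difference became 0.27, and without C2 it became -1.59 and was called. Tap2 read 1.31 and 2.54 in Pu, 2.19 and 2.04 in A, 1.66 and 1.19 in B, and 1.34 and 2.04 in C. Its Pu arrays spanned all fibroblast arrays but B2, and no difference was called (0.19 in A, -0.50 in B and -0.24 in C, each with an SE of 0.47).

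Across the 5 class I genes, the 95% intervals of the differences from Pu ran from -2.48 to 1.31. The median difference was -0.19 in A, -0.50 in B and -0.57 in C, beside 0.11, 0.11 and 0.05 over all genes tested. With median scaling, which moves the median of all genes to 0.44 in A, the class I median in A became 0.13, so its sign depends on the scaling. The summed class I signal was 74.6% to 85% of the Pu mean on the A arrays, 70.3% to 76.8% on the B arrays and 65.9% to 70.7% on the C arrays.

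Class I promoters carry a kappa B site and an interferon response element, bound by NF-kappa B and by IRF factors, ahead of an element whose factors recruit NLRC5. RefSeq promoter windows (GRCm38.p6; 250 bases before to 50 after a start) were given for 6 of the 10 members. A stretch is shown for both H2-K1 and H2-D1, because these heavy chains share it. It runs from the kappa B site to the interferon response element and is identical at 27 of 28 bases. Capitals mark the kappa B letters GGGATTCCC and, on the minus strand, AANNGAAA.
H2-K1 (chr17:34000430-34000457, minus strand): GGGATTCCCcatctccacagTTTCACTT
H2-D1 (chr17:35262924-35262951, plus strand): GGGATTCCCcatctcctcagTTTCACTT
GGGATTCCC was found on either strand in 100 of 27025 promoters, or 0.37%, in a search of 1 window per gene. Among them were the class I heavy chains H2-D1, H2-K1, H2-Q6 and H2-Q7, but also listed genes that are not class I chains. The windows of B2m and Tap1 did not hold GGGATTCCC. AANNGAAA, on either strand, was in 24.2%. The B2m promoter held the latter on the plus strand, starting 137 bases before the start site, and the Y box core ATTGG, which 37.9% of promoters hold on either strand. Both are in capitals in its 140 bases before the start site.
B2m (chr2:122147547-122147686, plus strand): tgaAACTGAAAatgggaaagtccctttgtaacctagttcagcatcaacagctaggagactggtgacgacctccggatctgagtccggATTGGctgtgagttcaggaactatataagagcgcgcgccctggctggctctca
A match of letters is a description of the window and not a measurement of binding.

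H2-Aa encodes the alpha chain of I-A, the class II molecule of C57BL/6 mice. It read 4.71 and 4.56 on Pu1 and Pu2, and was not well above background on any of the 6 fibroblast arrays, where it read -5.89 to -3.55. The probe thus passed the filter on dim probes through Pu alone, and that filter favours a lower level in the fibroblasts. Without the filter limma still called it lower (adjusted p = 3.26e-04 in A, 2.32e-04 in B and 3.2e-04 in C). The gap between the lowest Pu array and the highest fibroblast array was wider than any spread within a group. Because the fibroblast values have only an upper bound, the fold is a lower bound. It sets the Pu mean against, per array, whichever is brighter, the probe itself or the dimmest probe that was well above background. H2-Aa was at least 364-fold lower in A (adjusted p = 1.44e-04), at least 369-fold lower in B (adjusted p = 9.36e-05) and at least 306-fold lower in C (adjusted p = 1.42e-04). These bounds do not order the 3 types, and they hold for the scaled processed signal: with normexp correction the differences were 62.7-, 61.8- and 52.7-fold.

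H2-Ab1 encodes the I-A beta chain. Its brighter probe read 4.32 and 5.32 in Pu, -1.44 and -1.22 in A, -1.80 and -1.84 in B, and -1.84 and -3.47 in C, where C2 was not above background. All fibroblast arrays lay below both Pu arrays by more than 5 log2 units. The difference was -6.15 ± 0.57 in A, -6.64 ± 0.57 in B and -7.48 ± 0.57 in C, that is 71.2-, 99.8- and 178-fold lower, with adjusted p of 4.25e-04, 3.07e-04 and 2.46e-04. The second probe matches the first at 50 of the 51 bases over which they overlap, so it is not an independent check. It gave 88.1-fold in A, 151-fold in B and 236-fold in C, the last falling to 119-fold when C2 was set at the lowest signal above background.

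H2-Eb1 encodes the beta chain of I-E, whose alpha chain gene H2-Ea is known to be defective in C57BL/6 mice. In these data H2-Ea was not above background on any of the 8 arrays and was not tested. H2-Eb1 itself read 1.93 and 3.18 in Pu, -3.45 and -2.98 in A, -3.27 and -3.90 in B, and -3.47 and -5.30 in C. Both A arrays and B1 were above background, whereas B2 and both C arrays were not. It was 54.5-fold lower in A (-5.77 ± 0.67, adjusted p = 0.00113), 70.5-fold lower in B (-6.14 ± 0.67, adjusted p = 8.44e-04) and at least 64-fold lower in C (adjusted p = 5.53e-04).

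Cd74 encodes the invariant chain, which guides class II molecules to the endocytic compartment and blocks their groove on the way. It read 6.03 and 6.02 in Pu, -2.72 and -1.99 in A, -2.33 and -3.40 in B, and -1.08 and -3.17 in C. It was above background on all 8 arrays, so these folds are measured and not bounds. The difference was -8.38 ± 0.70 in A, -8.89 ± 0.70 in B and -8.15 ± 0.70 in C, or 334-, 474- and 284-fold lower, with adjusted p of 2.90e-04, 2.20e-04 and 3.61e-04. As a share of the Pu mean the residual signal was 0.232% and 0.386% for A, 0.306% and 0.145% for B, and 0.725% and 0.171% for C. C1 was thus the highest fibroblast array.

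Ciita encodes the transactivator that is required for class II transcription and that does not bind DNA itself. It read 1.33 and 0.15 in Pu, -0.34 and -0.49 in A, -0.15 and -0.09 in B, and 0.77 and 0.51 in C, and was above background on all 8 arrays. The A and B arrays lay below both Pu arrays, and the C arrays lay between them. The difference was -1.16 ± 0.41 in A (95% interval -2.13 to -0.19, adjusted p = 0.0799), -0.86 ± 0.41 in B (-1.83 to 0.11, adjusted p = 0.16) and -0.10 ± 0.41 in C (-1.07 to 0.87, adjusted p = 0.878). The C-type interval lies apart from those of H2-Aa, H2-Ab1, H2-Eb1 and Cd74, which together ran from -11.58 to -4.18 over the 3 types. Without Pu2 it was called in A (-1.75, adjusted p = 0.00514) and in B (-1.45, adjusted p = 0.00877), and without Pu1 the differences were -0.57 and -0.27, not called. It was also called in A when the 75th percentile came from the probes detected on every array. One probe reports this gene, and which of its transcript forms it reads was not tested.

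**Figure D2:**
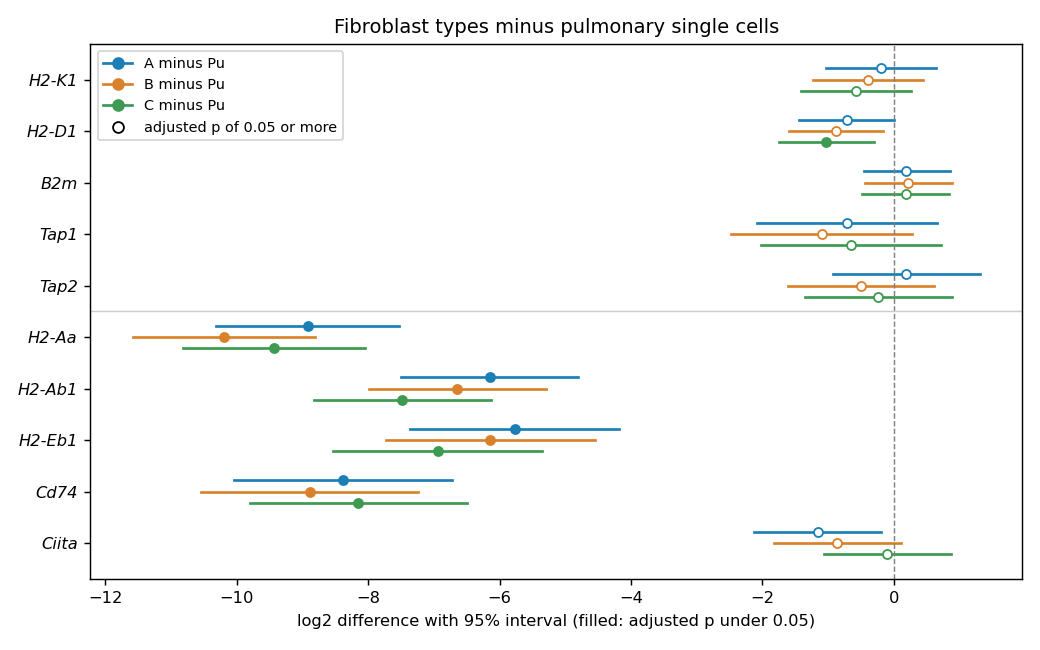
Log2 difference of each fibroblast type from pulmonary single cells for the 10 members, with 95% intervals from the limma fit of 8 arrays; filled points have an adjusted p under 0.05 and the dashed line marks no difference. The intervals of H2-Aa, H2-Ab1, H2-Eb1 and Cd74 end at or below -4.18, and those of the class I genes lie between -2.48 and 1.31.

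Class II promoters carry the X box, bound by the RFX complex, and downstream of it the Y box, bound by NF-Y. These factors form the platform on which CIITA acts. The 140 bases before the start site are shown for H2-Aa and H2-Eb1, and for H2-DMb1, a peptide-loading chain that was also lower in all 3 types. Capitals mark AACNGATG, the end of the X box, the class II Y box CTGATTGG and its core ATTGG, which overlaps it, on either strand.
H2-Aa (chr17:34287824-34287963, minus strand): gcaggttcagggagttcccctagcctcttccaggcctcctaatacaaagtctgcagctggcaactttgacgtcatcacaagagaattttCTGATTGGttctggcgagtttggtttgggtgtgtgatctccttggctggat
H2-Eb1 (chr17:34305727-34305866, plus strand): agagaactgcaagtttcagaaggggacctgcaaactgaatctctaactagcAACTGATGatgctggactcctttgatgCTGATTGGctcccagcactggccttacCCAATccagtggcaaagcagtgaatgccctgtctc
H2-DMb1 (chr17:34153051-34153190, plus strand): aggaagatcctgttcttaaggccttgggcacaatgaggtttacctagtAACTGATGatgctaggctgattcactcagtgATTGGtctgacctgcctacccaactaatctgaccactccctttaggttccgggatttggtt
CTGATTGG began 51 bases before the start site in H2-Aa and 62 before it in H2-Eb1. AACNGATG began 89 bases before it in H2-Eb1 and 92 in H2-DMb1. Of the 27025 promoters, 2.33% held AACNGATG and 4.31% held CTGATTGG on either strand. CTGATTGG also occurred in the windows of H2-K1, H2-D1 and Tap1, so these letters do not separate the class II genes from the class I genes. These letters of the X box were not in the H2-Aa window.

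Between the fibroblast types no member was called. The share of all genes called was 0% for A minus B, 0.389% for A minus C (0.271% higher, 0.118% lower) and 2.41% for B minus C (1.25% higher, 1.16% lower), so few calls would be found in a list of 10. At an unadjusted p under 0.05, limma gave 0 members and 573 genes for A minus B, 1 member and 2291 genes for A minus C, and 0 members and 2676 genes for B minus C. The normexp alternative called 21 genes and 0 members in A minus B. The 1 member was Ciita, which was lower in A than in C on both arrays, by -1.05 ± 0.41 (95% interval -2.02 to -0.08, adjusted p = 0.35). It fails the correction, and the sign held under all 19 alternatives, between -1.18 and -0.67.

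**Figure D3:**
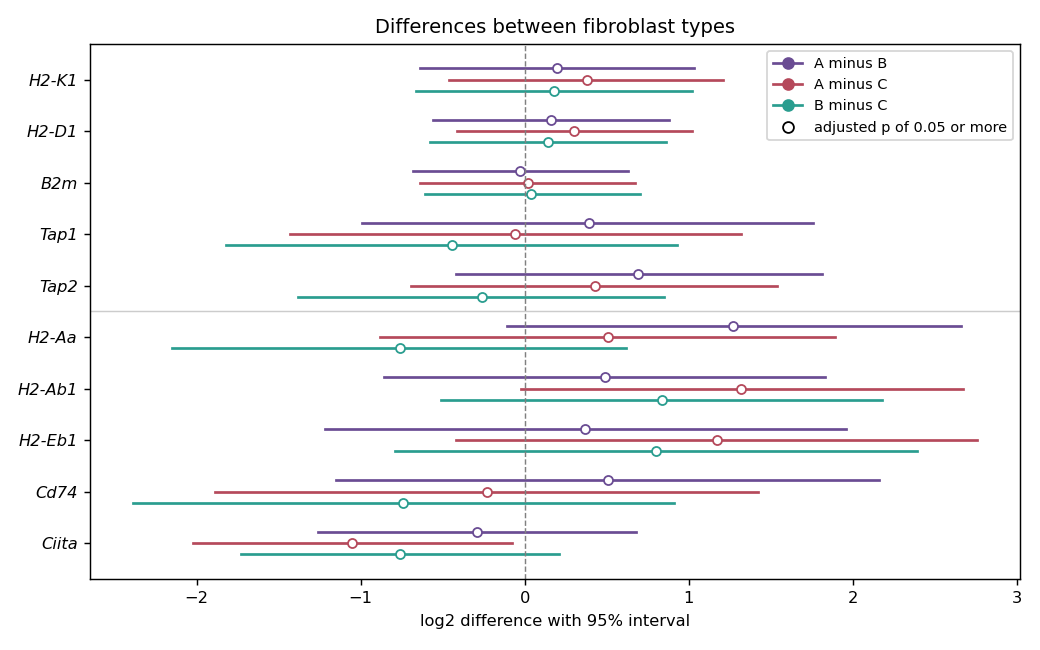
Log2 differences between fibroblast types for the 10 members, with 95% intervals; all points are open because no adjusted p was under 0.05. The Ciita interval for A minus C, from -2.02 to -0.08, is the only one that leaves out 0.

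The class I intervals between types ran from -1.82 to 1.81, and were narrowest for B2m, at -0.68 to 0.63 for A minus B. The fit takes 1 spread per gene over all groups, so the scatter of the Pu arrays enters these intervals. Replicates lay over 2-fold apart for 31.4% of genes in Pu and 20.9% in C, beside 5.2% in A and 5.52% in B. For H2-Aa no fold between types is given, since all 6 fibroblast arrays were below background. H2-Ab1 was measured on 5 of the 6, and its A minus C difference of 1.32 ± 0.57 (95% interval -0.02 to 2.67, adjusted p = 0.393) rests on C2, where the probe was not above background. Cd74 differed by 0.51 for A minus B, -0.23 for A minus C and -0.74 for B minus C, each with an SE of 0.70. Without C1 the B minus C difference turned to 0.30.

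Markers of other cell types were read on the same arrays. The 5 pan-leukocyte markers, summed, were at 1.34% to 1.47% of the Pu mean on the A arrays, 1.18% to 1.26% on the B arrays and 1.82% to 1.88% on the C arrays. The 5 class II members, summed, were at 1.11% to 1.25%, 1.1% to 1.17% and 1.31% to 2.02%. Each sum rested largely on 1 gene, as Ciita made up 44.4% to 85% of the class II sum on the fibroblast arrays and Ptprc, which encodes CD45, 45.4% to 71.6% of the leukocyte sum. Without Ciita the class II sum was at 0.507% to 0.706% in A, 0.37% to 0.48% in B and 0.199% to 0.707% in C. Without Ptprc the leukocyte sum was at 0.567% to 0.672%, 0.43% to 0.586% and 0.541% to 1.07%. Among those not above background on any fibroblast array were Laptm5 of the leukocyte list, Ms4a1 and Blk of the 6 B cell markers, and Mrc1, Itgax, Xcr1 and Cd209a of the 15 macrophage, monocyte and dendritic markers. Xcr1 was not above background in Pu either.

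The summed B cell markers were at 6.46% to 8.34% of Pu and the summed macrophage, monocyte and dendritic markers at 17.7% to 29.7%, with 6 to 10 of the 15 above background. The latter sum rested largely on Itgam and Csf1r, which stayed at 42.6% to 82.4% and 63.7% to 76.4% of Pu on the fibroblast arrays. The dimmer Flt3 and Zbtb46 stayed at 40.6% to 113%. The other tested markers of this list lay between 0.0113% (Chil3 on C2) and 20.4% (Cd209a on C2). Surfactant and other alveolar type 2 markers, 7 in all, were at 2.27% to 6.10%. On the A and B arrays this sum rested largely on Lamp3, at 45% to 81.6% of Pu. On C1, where Cd74 was highest, 3 of the 5 pan-leukocyte markers, 7 of the 15 macrophage, monocyte and dendritic markers, 1 of the 6 B cell markers and 4 of the 7 alveolar type 2 markers read higher than on C2. These counts include markers below background on 1 or both of the C arrays. Of those above background on both, 1 of 2, 2 of 6, 0 of 2 and 3 of 5 read higher on C1. That is too few to show whether the lists moved together. The part of other cells in the residual class II signal was not tested.

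**Figure D4:**
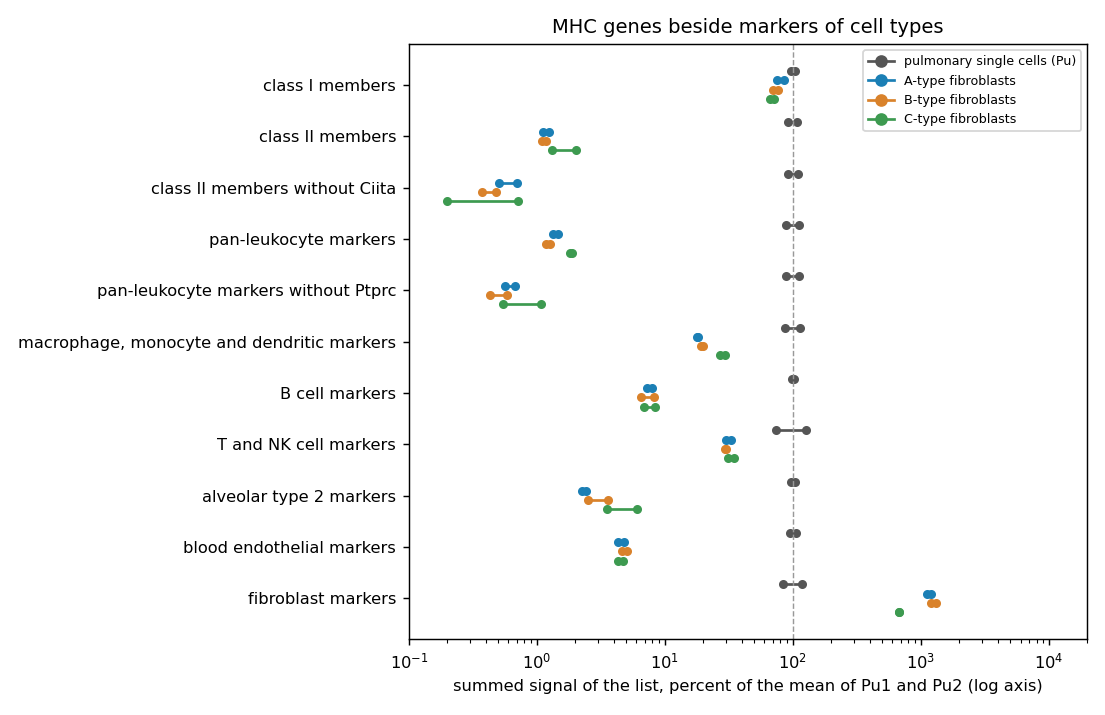
Summed signal of the class I and class II members and of marker lists, as percent of the mean of Pu1 and Pu2, on a log axis; each pair of joined points is the lower and the higher array of a group. Class II members lie at 1.1% to 2.02% on the fibroblast arrays and at 0.199% to 0.707% without Ciita, class I members at 65.9% to 85%, and fibroblast markers at 676% to 1320%.

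Of the wider class II pathway, 11 genes were tested and most fell with the class II chains. In A 7 were lower and 2 higher, in B 7 lower and 1 higher, and in C 8 lower and 2 higher. Of all genes 11.7%, 12.9% and 13.7% were called lower and 14.7%, 16.1% and 14.7% higher. The list median was -3.80, -3.13 and -3.49, and with normexp correction -2.04, -2.25 and -2.19. The largest difference was that of Ctss, the protease that trims the invariant chain, at 5.92 and 7.01 in Pu and -4.96 to -1.49 in the fibroblasts. It was 714-fold lower in A, at least 1180-fold lower in B and 496-fold lower in C, where C1 was above background and C2 was not. The smallest called difference was a rise of Lgmn, a lysosomal protease, by 1.09 ± 0.28 in A (adjusted p = 0.0262), with 1.54 ± 0.28 in C (adjusted p = 0.00692) and 0.30 in B, where it was not called.

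The peptide-loading chains followed the class II chains. H2-DMa read 3.33 and 3.43 in Pu and -3.75 to -1.60 in the fibroblasts, and was 60.3-fold lower in A, 39.6-fold in B and 74.6-fold in C. It was not above background on C1, so its C-type fold rests in part on background. H2-DMb1 stayed above background on all 8 arrays, at 1.96 and 3.91 in Pu and -1.22 to -0.41 in the fibroblasts, and was 13.9-, 14.2- and 11.2-fold lower. H2-DMb2 was at least 69.7-, 63.5- and 52.6-fold lower and below background on all 6 fibroblast arrays, so it passed the filter through Pu alone. H2-Oa and H2-Ob, the chains of the modulator H2-O, were also lower in all 3 types, with H2-Ob down 19.3-fold in A, 20.6-fold in B and at least 25.2-fold in C. Ifi30, a lysosomal thiol reductase, fell less, by 4.61-, 5.43- and 12.8-fold. Marchf8, a ubiquitin ligase that acts on class II and other membrane proteins, rose by 1.22 ± 0.26, 1.40 ± 0.26 and 1.26 ± 0.26 (adjusted p = 0.0138, 0.00767 and 0.0118).

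Among 17 other class I heavy chains, 2 were higher and 3 lower in A, 1 higher and 4 lower in B, and 1 higher and 4 lower in C, with medians of -0.70, -0.67 and -0.74. The lower share was 17.6%, 23.5% and 23.5%, beside 11.7%, 12.9% and 13.7% of all genes. These counts use the brightest probe of a gene, and dimmer probes of H2-Q10 (-3.23, -3.39 and -4.33), H2-Q2 (-1.78, -1.70 and -1.32) and H2-T24 (-1.71, -1.79 and -2.84) differed more from Pu than the brightest, at -1.08 to -0.82, -0.74 to -0.37 and -0.71 to -0.15. H2-Q1, a heavy chain of the Q region, had the largest called difference measured on both sides and was 3.14-fold lower in A, 4.01-fold in B and 3.12-fold in C. H2-T3, a thymus leukemia antigen chain, was at least 2.95-fold lower in A and 2.69-fold lower in B, with no fibroblast array above background, so it passed the filter through Pu alone. H2-K2 had the smallest, at -0.99 ± 0.26 in C (adjusted p = 0.0292), and was also lower in B. Mr1, which presents vitamin B metabolites to MAIT cells, was the chain that rose in all 3 types. It read -1.08 and -1.26 in Pu and -0.22 to 0.90 in the fibroblasts, with no overlap, and rose in type A by 1.56 ± 0.27, in type B by 1.02 ± 0.27 and in type C by 1.99 ± 0.27 (adjusted p = 0.00579, 0.0285 and 0.00213). H2-Q7, a chain of the Qa-2 antigen, was lower by 2.02-, 2.24- and 2.46-fold, but its probe lists accessions of more than 1 gene. With median scaling 0 of these 17 chains were lower in C, and in B 2 were.

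Of 12 genes of class I peptide supply and loading, 1 was higher and 1 lower in A, 2 higher and 1 lower in B, and 1 higher and 3 lower in C. Of all genes 14.7%, 16.1% and 14.7% were higher and 11.7%, 12.9% and 13.7% lower in the 3 types, so in A and B these counts are near the background. Psmb9, the immunoproteasome subunit whose gene lies beside Tap1, read 4.57 and 3.41 in Pu and 2.03 to 2.42 in the fibroblasts. It was 3.33-fold lower in type A, 3.16-fold in type B and 3.87-fold in type C (adjusted p = 0.0196, 0.0221 and 0.0122), the largest called difference of the list. Psmb8, another immunoproteasome subunit, was lower in C by 3.35-fold (adjusted p = 0.0118), while -1.1 ± 0.36 in A and -0.95 ± 0.36 in B were not called. The smallest called difference was a rise of Pdia3, the thiol oxidoreductase of the loading complex, by 1.06 ± 0.29 in B (adjusted p = 0.032). The lectin chaperone Canx rose by 1.12 ± 0.33 in A and 1.24 ± 0.33 in B (adjusted p = 0.0458 and 0.0302).

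**Figure D5:**
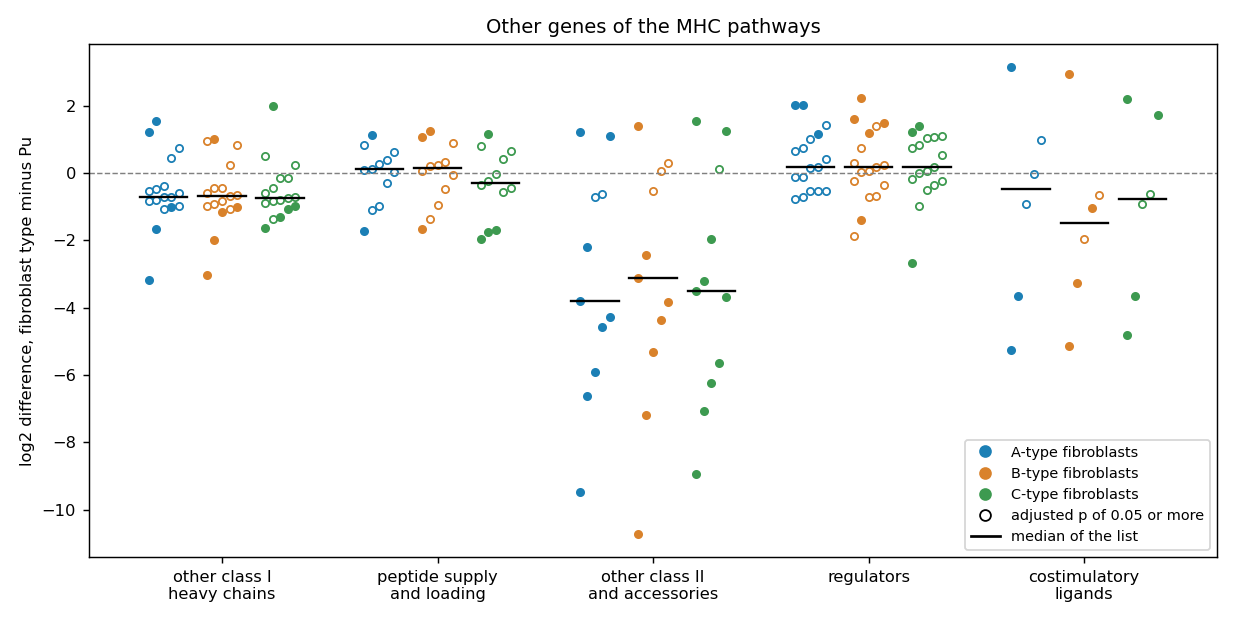
Log2 difference from pulmonary single cells for each tested gene of 5 further lists, by fibroblast type; filled points have an adjusted p under 0.05 and black lines are list medians. The median of the other class II genes lies at -3.80 to -3.13, that of the other class I heavy chains at -0.74 to -0.67 and that of the regulators at 0.18 to 0.19.

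The regulators of MHC transcription were mostly not called. Of 17 tested, 3 were higher and 0 lower in A, 4 higher and 1 lower in B, and 2 higher and 1 lower in C, with medians of 0.18, 0.19 and 0.18. The share higher was 17.6%, 23.5% and 11.8%, beside 14.7%, 16.1% and 14.7% of all genes. The smallest called difference was a rise of the interferon gamma receptor chain Ifngr1, which read 2.60 and 2.62 in Pu and 3.67 to 4.08 in the fibroblasts. It rose in type A by 1.17 ± 0.27, in type B by 1.18 ± 0.27 and in type C by 1.41 ± 0.27 (adjusted p = 0.0183, 0.0172 and 0.00853). Socs1, an inhibitor of JAK signalling, rose 4.10-fold in A and 4.73-fold in B (adjusted p = 0.00543 and 0.00349). In C it differed by 0.55 ± 0.34 (adjusted p = 0.274). The NF-Y subunit Nfyc rose in A and B on its brighter probe, by 2.03 ± 0.43 and 1.61 ± 0.43 (adjusted p = 0.0137 and 0.0305), while its other probe differed by 0.43 and 0.02. The RFX subunits Rfx5, Rfxap and Rfxank, named after their values were seen, were not called in any of the 6 comparisons on their brightest probes. The dimmer Rfx5 probe, above background on all 8 arrays, differed from Pu by 1.01, 1.39 and 0.57 in A, B and C. The brighter one differed by 0.18, 0.25 and -0.5.

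Irf8, a factor of myeloid and B cells, was the 1 regulator of 17 called between fibroblast types, in B minus C, where 2.41% of all genes were called. It read 0.67 and 0.86 in A, -0.10 and -0.08 in B, and 1.98 and 2.67 in C, beside 1.40 and 1.20 in Pu. Both C arrays lay above all other arrays and both B arrays below them. B minus C was -2.42 ± 0.32 in log2 units with an adjusted p of 0.0141, and the call held under 13 of 18 alternatives. Leaving out any 1 of A1, A2, B1 or B2 ended it, as did fitting the 4 arrays alone. Cd40, a costimulatory receptor of antigen-presenting cells, followed the same order among the 3 fibroblast types, but not in relation to Pu. It read -1.97 and -1.70 in A, -3.39 and -3.56 in B, and -0.77 and -1.42 in C. In Pu, between A and B, it read -2.87 and -2.76. It rose in C over Pu by 1.72 ± 0.32 (adjusted p = 0.00783), and B minus C was -2.38 ± 0.32 (adjusted p = 0.0145). Cd40 was not above background on B2, so this value rests in part on background, and with normexp correction it was -0.9 and not called.

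Of 6 costimulatory ligands and receptors, 1 was higher and 2 lower in A, 1 higher and 3 lower in B, and 2 higher and 2 lower in C. Of all genes 14.7%, 16.1% and 14.7% were higher and 11.7%, 12.9% and 13.7% lower, but a list of 6 is too short to be read as a share. Cd86, a ligand of CD28, read -1.83 and -0.30 in Pu and was not above background on any of the 6 fibroblast arrays, so it passed the filter through Pu alone. It was at least 7.75-fold lower in A, 7.06-fold in B and 5.85-fold in C. Cd80, the other ligand of CD28, had the smallest called difference, at -1.03 ± 0.28 in B (adjusted p = 0.0339). Cd274, the ligand PD-L1, read 1.41 and 1.78 in Pu and -2.23 to -1.24 in the fibroblasts, and was 12.5-, 9.62- and 12.6-fold lower, the largest called difference of the list measured on both sides. Icosl, the ligand of ICOS, moved the other way. It read -1.24 and -0.21 in Pu and 1.39 to 2.54 in the fibroblasts, with no overlap, and rose 8.79-fold in type A, 7.73-fold in type B and 4.63-fold in type C (adjusted p = 0.00147, 0.00189 and 0.0064).

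The genes whose pattern was nearest to the members were taken by the root mean square difference over the 8 arrays, after centring each gene on its own mean. Nearest to the mean of the 4 class II genes without Ciita were Arap3 (0.37), Cldn5 (0.38), Cd93 (0.43), Klra2 (0.44) and Hba-a1 (0.45). Cldn5 is a tight junction gene of endothelium and Hba-a1 a globin gene of red cells, and both read high in Pu and low in all fibroblasts. The members themselves stood at 0.54 (Cd74) to 0.89 (H2-Aa) from that mean, and Ciita at 3.17. Nearest to the class I mean were 4930518P08Rik and Ccin (0.09 each), Anks1 (0.10), Shisa7 (0.11) and Ddx54 (0.11). The class I members stood at 0.21 (H2-K1) to 0.46 (Tap1) from it.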

How the data were processed

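Per the file headers, the deposited scanner files hold a background-subtracted intensity per spot, written by Agilent Feature Extraction 10.10.1.1. Spots flagged as outliers were dropped, spots of a probe were averaged, and log2 signals were scaled by subtracting the 75th percentile of each array. The authors' value table holds log2 values that equal the log2 processed signal minus 1 constant per array (100% of 55653 probes within 0.02), with column medians of 4.84 (4.85 for A2), and served as an alternative. Its scale, centring and direction are thus known.

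Probes were named through the RefSeq table: 28011 by accession, 321 by another listed accession, 3191 by symbol and 272 by synonym, while 1983 kept the file's symbol and 21875 stayed unnamed. Probe positions in the files belong to another mouse assembly and were not used here.

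A gene was its brightest probe among those well above background on both arrays of at least 1 group. H2-Aa, H2-DMb2, H2-Oa, Cd86 and H2-T3 were among the genes that passed through Pu alone. For such genes the filter itself favours a lower level in the fibroblasts. limma 3.58.1 in R 4.3.3 fitted 4 group means to 8 arrays (4 residual and 3.06 prior degrees of freedom), for 6 comparisons. The fit was tested on simulated data for A minus Pu: of 50 genes changed at each size, 0%, 16%, 40% and 70% were recovered at log2 changes of 1, 2, 3 and 4, with 3 false calls among 17732 genes. Far fewer genes changed in the simulation than the 26.4% called in the real comparison, and the Benjamini-Hochberg adjustment is stricter when few genes change. The recovered shares are therefore not the power of the real comparison. Precision is limited by 2 arrays per group. Files were read and figures drawn with Python 3.11.15, numpy 2.4.6, pandas 2.3.3 and matplotlib 3.10.9.

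The members and lists were chosen with earlier results of these data known. Named genes are all members, genes of the lists called at least once, with the largest and smallest called difference first, and the 5 genes nearest to each class profile. Values of 1 called regulator and 1 marker are not reported here. The lists were other class I heavy chains, class I peptide supply, other class II genes, regulators, costimulatory ligands and 10 sets of cell type markers; 145 of their and the members' 148 genes were on the array. The other marker sets, as percent of the Pu mean on fibroblast arrays, gave 29.5% to 34.6% for T and NK cells, 4.32% to 5.06% for blood endothelium, 1.20% to 2.05% for lymphatic endothelium, 2.90% to 28.2% for mesothelium and 26.2% to 65.5% for pericytes and smooth muscle. These sums also rested on few genes. Cd4 and Nkg7 carried most of the T and NK sum, at 39.4% to 52.8% of Pu, beside 0.589% (Cd3d) to 42.4% (Ncr1) for the rest of that set. Kdr carried most of the blood endothelial sum, at 32.6% to 42%, with the rest of that set at 0.129% to 3.98%. The lymphatic sum rested largely on Prox1 and, in A and B, the mesothelial sum on Wt1. Alternatives covered scaling, background correction, filter, probe choice, arrays in the fit and a replicate block.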

Additional observations from a re-analysis of the deposited data

Results flagged for a closer look

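The difference of Irf8 and Cd40 from Pu was not the same in B and C, by the limma test of B against C in these 8 arrays. They were 1 of 17 regulators and 1 of 6 costimulatory genes, and no member or gene of the other pathway lists was called in B minus C. Beside the 2.41% of all genes called, these calls are too few to be read as a result about the lists. For Irf8, B minus C was -2.42 in log2 units (adjusted p = 0.0141), as the B type stood at -1.39 ± 0.32 (SE) from Pu and the C type at 1.03 ± 0.32. For Cd40, B minus C was -2.38 (adjusted p = 0.0145), with -0.66 ± 0.32 in B and 1.72 ± 0.32 in C. All of these differences share the same 2 Pu arrays. The Cd40 call held under 11 of 17 alternatives, with values between -2.7 and -0.9. Cd40 was not above background on B2. The call was lost with normexp background correction, when the 4 arrays were fitted alone, and without any 1 of A1, A2, B1 or B2.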

How the results depend on the processing

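The counts of called members were within 1.5 times the reported ones in 111 of 114 recomputed counts. This is a loose measure, since it includes the counts between types, which were 0 throughout, and takes 4 and 6 as the same. With only probes above background on all 8 arrays, H2-Aa, H2-Ab1 and H2-Eb1 left the test and the counts fell to 1 in A, 1 in B and 2 in C of 7 members. The 4 class II genes that were called against Pu stayed called under all other alternatives (H2-Aa, H2-Ab1 and H2-Eb1 under 18, Cd74 under 19). Their size did not hold: with normexp correction H2-Aa was 52.7- to 62.7-fold lower, H2-Ab1 41.6- to 51.3-fold, H2-Eb1 11.2- to 13-fold and Cd74 93.7- to 130-fold. Leaving out 1 array moved H2-Aa in A (A1, A2), H2-Aa, H2-Ab1, H2-Eb1 and Cd74 in C (C1, C2) and H2-Eb1 in all 3 types (Pu1, Pu2) by over 1.5-fold, with log2 differences of -9.65 to -8.19 for H2-Aa in A, -10.01 to -8.85, -8.29 to -6.67, -7.85 to -6.03 and -9.19 to -7.11 in C, and -6.39 to -5.14 and -6.77 to -5.51 for H2-Eb1 in A and B. Leaving out each array gave 4 to 6, 4 to 6 and 4 to 5 called members against Pu, and 0 between types; the changes were in H2-K1, H2-D1, Tap1 and Ciita. The share of called genes that were higher in A, B and C moved from 55.6%, 55.6% and 51.7% to 68.3%, 69.7% and 69.2% with median scaling and to 41.4%, 38.6% and 35.8% with the 75th percentile of the probes above background on every array. Median scaling raised the median of all genes from 0.11 to 0.44 in A.

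Signs turned only for differences that were not called. With quantile normalization B2m became -0.10, -0.12 and -0.03 against Pu (A, B, C), 0.02 for A minus B, -0.07 for A minus C and -0.09 for B minus C, and Tap2 became -0.04 in A. With that percentile B2m became -0.10, -0.10 and -0.13 against Pu and 0.01 for A minus B, and Tap2 -0.10 in A. With median scaling, H2-K1 became 0.13 in A, Tap2 0.17 and Ciita 0.30 in C, and B2m -0.06 for A minus C and -0.01 for B minus C; the authors' table gave 0.14, 0.17, 0.29, -0.06 and -0.01. With normexp, Tap1 became 0.03 in C, H2-Aa -0.02 for A minus B and -0.25 for A minus C, and H2-Eb1 -0.17 for A minus C and -0.22 for B minus C. The mean of probes gave H2-K1 -0.02 for A minus C and -0.04 for B minus C. The cause was not tested.

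Leaving out 1 array gave these ranges where a sign turned. Against Pu, H2-K1 ran from -0.65 to 0.26 in A and -0.85 to 0.07 in B, B2m from -0.01 to 0.36 in C, Tap1 from -1.59 to 0.27 in C, Ciita from -0.70 to 0.49 in C, and Tap2 from -0.42 to 0.81 in A, -1.12 to 0.12 in B and -0.85 to 0.38 in C. For A minus B, B2m ran from -0.13 to 0.08 and Cd74 from -0.03 to 1.04. For A minus C, B2m ran from -0.08 to 0.12, Cd74 from -1.27 to 0.81, H2-Aa from -0.23 to 1.24 and Tap1 from -0.99 to 0.87. For B minus C, B2m ran from 0 to 0.09, Cd74 from -1.78 to 0.30, H2-Eb1 from -0.11 to 1.71, Tap1 from -1.37 to 0.49 and Tap2 from -0.61 to 0.09.

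The samples share a replicate number that is not known to pair them: replicate differences of 2 groups correlated across genes at -0.084 to 0.058. With the replicate block 4, 4 and 4 members were called against Pu and 0 between types, and H2-D1 in C was lost (adjusted p = 0.0679). A slide block was not run, because each slide holds Pu or fibroblasts alone. Signal near background limits the class II values in the fibroblasts, above all on C2. The sums without Ciita and without Ptprc were chosen after seeing the data.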

Other observations

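Some genes of the pathway had probes that did not move together. For Nlrc5, the transactivator of class I genes, the probe used above stood at 0.66 above Pu in A, 0.07 in B and 1.22 in C, the last called (adjusted p = 0.0444). The other Nlrc5 probe, above background on 5 of 8 arrays, differed by -3.62, -3.84 and -3.50, and the mean of both probes by -1.14 in C. For Marchf1, a ubiquitin ligase that removes class II molecules from the surface of antigen-presenting cells, the brighter probe differed by -0.71, -0.54 and 0.11. The dimmer Marchf1 probe read 1.36 in Pu on average and was above background on 3 arrays, with differences of -5.55, -5.63 and -5.03. For Cd80 the probes differed by -0.91, -1.03 and -0.62 and by -3.20, -3.24 and -3.47. These probes were picked out after their values were seen, and which transcripts each probe reads was not tested.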
